A study of Mus musculus with 19 samples.

Results

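Transcripts of 7 genes of red blood cells were followed in mouse cerebral microvessels: the adult globins Hba-a1, Hba-a2, Hbb-bs and Hbb-bt, the haem enzyme gene Alas2, the red cell glycolytic enzyme gene Bpgm and the anion exchanger gene Slc4a1. The genes were taken by symbol, and the 7 stand among 39179 Ensembl genes counted in each library. Messenger RNA of the small vessels of the brain was sequenced in 19 libraries from male C57BL/6 mice purchased at 7 weeks of age and kept on a 12-hour light cycle. The groups were smoke (4 libraries, smoke exposure) and air (4, room air), Nic (3, electronic cigarette with nicotine), Nic-free (4, electronic cigarette without nicotine) and Room-air (4, room air). The air and Room-air sets carry the same exposure label and differ by title alone. No label gives dose, duration, age at collection, batch or day, or ties a control to an exposure, so air was set beside smoke and Room-air beside the electronic cigarette groups by the titles. Nothing says whether the libraries of a group come from separate animals, so p-values measure the spread between these samples, which may be technical.

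Adult haemoglobin is built from a pair of alpha chains and a pair of beta chains, each holding a haem. Its messenger RNA is made in erythroblasts and persists in reticulocytes, the youngest circulating red cells, so in a tissue sample it mostly marks blood and its precursors, although endothelial cells, neurons and glia are also known to make some alpha or beta globin. Alas2 is the erythroid form of the first enzyme of haem synthesis, Bpgm makes 2,3-bisphosphoglycerate, which lowers the oxygen affinity of haemoglobin, and Slc4a1 (band 3) exchanges chloride for bicarbonate across the red cell membrane. In a bulk sample fewer cells of a type and less RNA per cell cannot be told apart.

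The globin genes lie in tandem pairs (GRCm38, GENCODE M21). Hba-a1 (ENSMUSG00000069919, chr11:32283511-32284465, plus strand) and Hba-a2 (ENSMUSG00000069917, chr11:32296489-32297298, plus strand) have coding sequences of 426 bases that differ at 1 position, C381T counted from 1 at the start codon of Hba-a1. Hbb-bs (ENSMUSG00000052305, chr7:103826534-103828096, minus strand) and Hbb-bt (ENSMUSG00000073940, chr7:103812524-103813996, minus strand) have 441 coding bases with 1 difference, C417T counted in Hbb-bs. Of all stretches of 80 bases, the read length, 67.0% of those in Hba-a1 transcripts are also in Hba-a2 and 83.6% of those in Hba-a2 are in Hba-a1. For Hbb-bs and Hbb-bt the shares are 51.2 and 56.2%. Counts of the copies of a pair are therefore uncertain against each other, and the sum of a pair is the safer measure. The shared part is larger in the alpha pair, so alpha against beta levels are uncertain too if shared reads were dropped. Alas2 (ENSMUSG00000025270, chrX:150547375-150570638, plus strand) overlaps Apex2 on the other strand over 311 of its 2403 exon bases, and whether counting used the strand is not given in the sources used here. Bpgm (ENSMUSG00000038871, chr6:34476207-34505613, plus strand) and Slc4a1 (ENSMUSG00000006574, chr11:102348824-102366203, minus strand) overlap no annotated gene, and none of their stretches of 80 bases occurs in another member.

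The promoters of a globin of each chain, of Alas2 and of Bpgm are printed because the globins and Alas2 varied together between libraries and Bpgm did not vary with them. Each is the 250 bases before the start of the gene in RefSeq (GRCm38.p6), 5′ to 3′ on the strand of the gene. Capitals mark 4 short motifs searched on both strands: the GATA box spelled AGATAA, the CACCC box of KLF factors spelled CCACCC, the CCAAT box spelled by its own name and the TATA box spelled TATAA, whose reverse can overlap it.
Hba-a1, chr11:32283422-32283671, plus strand: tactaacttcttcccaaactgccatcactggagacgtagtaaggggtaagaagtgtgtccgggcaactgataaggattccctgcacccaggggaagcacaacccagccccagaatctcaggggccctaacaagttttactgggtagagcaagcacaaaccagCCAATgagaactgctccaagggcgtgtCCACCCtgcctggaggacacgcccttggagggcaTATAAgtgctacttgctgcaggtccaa
Hbb-bs, chr7:103827929-103828178, minus strand: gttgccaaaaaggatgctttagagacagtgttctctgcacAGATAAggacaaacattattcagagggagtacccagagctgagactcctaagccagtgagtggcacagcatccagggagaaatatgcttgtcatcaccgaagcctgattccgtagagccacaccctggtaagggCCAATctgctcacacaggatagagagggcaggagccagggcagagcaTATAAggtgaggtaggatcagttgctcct
Alas2, chrX:150547167-150547416, plus strand: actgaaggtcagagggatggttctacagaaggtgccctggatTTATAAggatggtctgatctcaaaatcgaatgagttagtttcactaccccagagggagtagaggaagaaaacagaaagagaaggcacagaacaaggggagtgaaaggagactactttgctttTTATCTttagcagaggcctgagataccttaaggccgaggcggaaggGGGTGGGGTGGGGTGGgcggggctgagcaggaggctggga
Bpgm, chr6:34476106-34476355, plus strand: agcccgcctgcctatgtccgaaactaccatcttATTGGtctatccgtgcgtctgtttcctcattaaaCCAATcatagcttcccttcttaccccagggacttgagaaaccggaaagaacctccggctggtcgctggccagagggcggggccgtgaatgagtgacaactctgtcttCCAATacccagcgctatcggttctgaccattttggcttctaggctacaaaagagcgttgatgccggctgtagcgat
The Hba-a1 window holds a CCAAT box, a CACCC box and a TATA box, and it shares an unbroken run of 247 bases with the window of Hba-a2. In Hbb-bs the window holds a GATA box, a CCAAT box and a TATA box. Only the spellings given above were searched. Near variants, such as ccacaccc in Hbb-bs and tgataa in Hba-a1, are not marked, so an unmarked motif is not shown to be absent. Alas2 has a GATA box and 3 overlapping CACCC boxes, all on the reverse strand, and a TATA box that overlaps its own reverse far from the start. In Bpgm the CCAAT box occurs 3 times, counting both strands, and the letters of the other 3 motifs are not in this window. Among 32851 promoter windows of the same length, the GATA box is found in 9.99%, the CACCC box in 28.1%, the CCAAT box in 33.8% and the TATA box in 22.8%, so a match is common and describes letters only.

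All 7 genes had counts in all 19 libraries. As levels per kilobase of exon over the 19 libraries, Hbb-bs averaged 376 CPM per kb (CPM, gene counts scaled to the total gene count of the library, divided by exon length), Hba-a1 128, Hba-a2 106 and Hbb-bt 78.6. How reads shared by the globin copies were counted is not known, so these globin levels are uncertain against each other. Bpgm averaged 15.1 CPM per kb, Alas2 5.11 and Slc4a1 0.112. The adult globins together made up 0.0325 to 0.0799% of the counts of a library. Between the lowest and the highest library the level in CPM differed 4.73-fold for Hba-a1, 4.99-fold for Alas2 and 2.00-fold for Bpgm. Slc4a1 rested on 1 to 27 counts per library, so that its 15.4-fold range includes much counting error.

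Of the other genes of red cell precursors, some were at or near 0 counts and others were well counted. Gata1, the master transcription factor of the lineage, had at most 1 count in any library, and Klf1, which drives adult beta globin, had at most 11. Epb42, the gene of protein 4.2 of the red cell membrane, had at most 4 counts. Factors and membrane genes that other cells also use were higher: Tal1 had 59 to 433 counts, Epor (the erythropoietin receptor) 57 to 328, Lmo2 360 to 1743, Zfpm1 264 to 1151, Ank1 548 to 2490 and Sptb 1009 to 4339. Of the embryonic chains, Hbb-y had 0 to 22 counts and was counted in 18 of 19 libraries. Hba-x and Hbb-bh1 had 0 counts in all 19 libraries, which allows levels of up to 0.0994 to 0.378 CPM per library (3 counts, counting error only). Ahsp, the gene of an alpha chain chaperone, was not analysed here. Globin transcripts were thus counted in libraries with few or no counts of Gata1 and Klf1. These examples beyond Gata1, Klf1 and Ahsp were chosen after their values were seen.

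**Figure D1:**
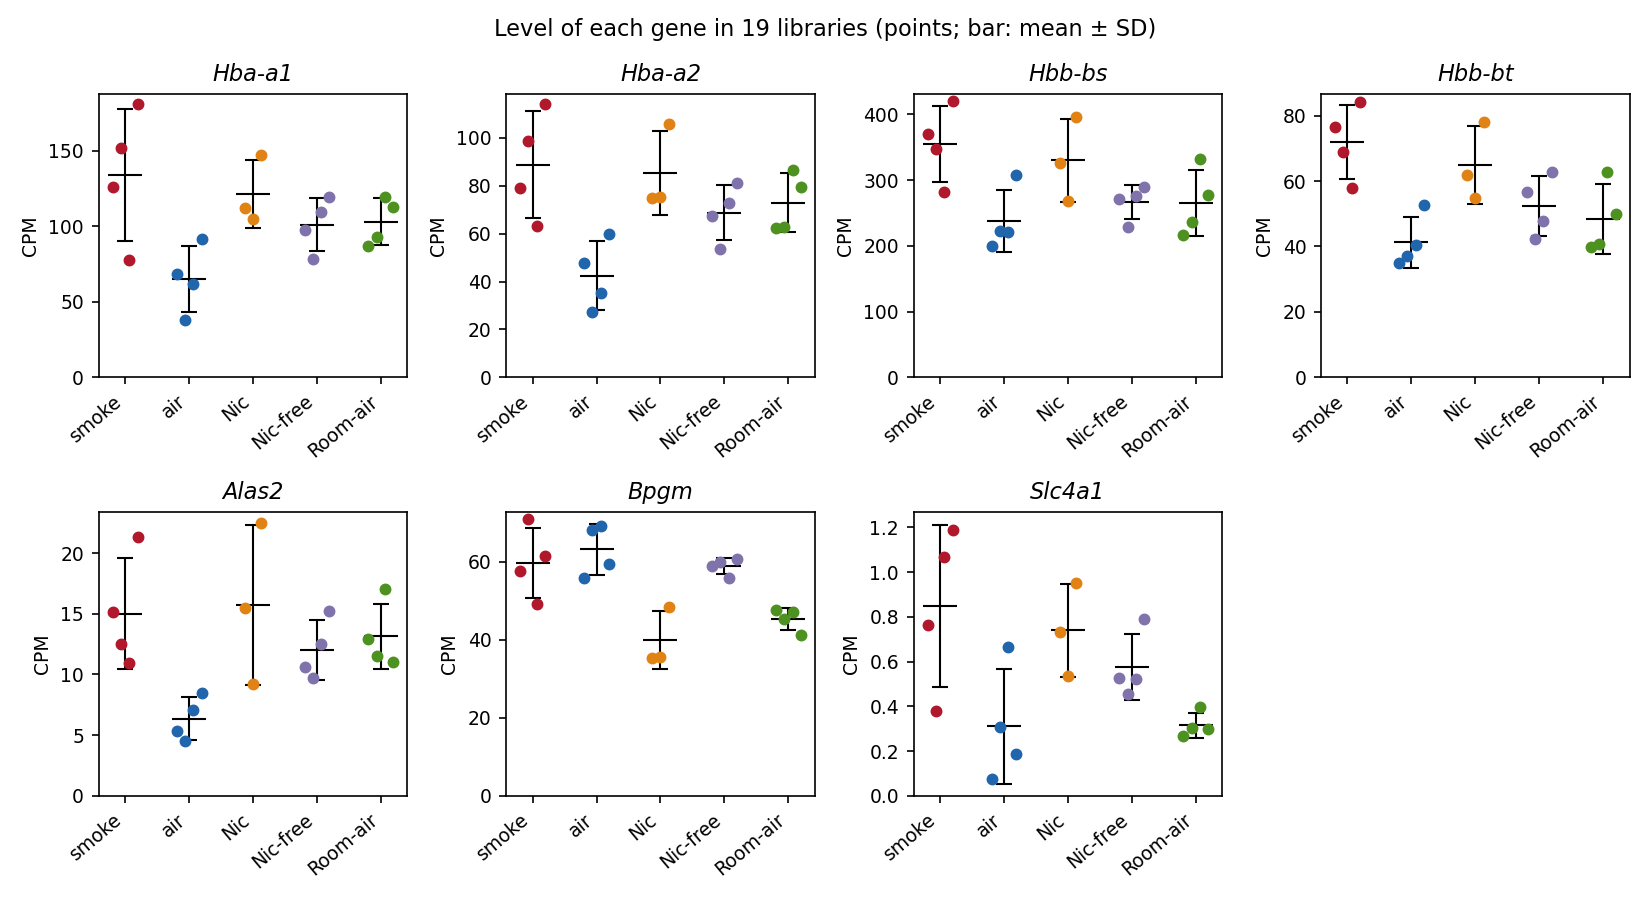
Level of each of the 7 genes in CPM (vertical axes, starting at 0) in every library of the 5 groups (points), with mean ± SD as bars. The 4 air libraries lie lowest for Alas2, at 4.51 to 8.49 CPM, and the Nic and Room-air libraries lie lowest for Bpgm, at 35.4 to 48.4 CPM.

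The order of the group means was smoke, Nic, Room-air, Nic-free and air for both alpha chains, and smoke, Nic, Nic-free, Room-air and air for both beta chains. Neighbours in these orders overlapped in their libraries for all 4 globins. Alas2 ran Nic, smoke, Room-air, Nic-free and air, where the air libraries lay below all others and the other neighbours overlapped. Bpgm ran air, smoke, Nic-free, Room-air and Nic, and the lowest Nic-free library lay above the highest Room-air library. Slc4a1 followed the order of the beta chains, and its Nic-free and Room-air libraries did not overlap.

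Smoke against air asks how smoke exposure bears on these transcripts. Alas2 and Hbb-bt rose, with group means in smoke 2.365 and 1.74 times those in air. The alpha chains Hba-a1 and Hba-a2, with ratios of 2.06 and 2.09, did not pass the test, nor did Hbb-bs (1.49) or Bpgm (0.946). Of 6 members tested, 2 were higher and none lower by edgeR's quasi-likelihood test (adjusted p under 0.05 over all genes tested), in a comparison where 1.60% of all genes passed, 1.08% higher and 0.519% lower. The median log2 fold change of the 6 was 0.94, against 0.02 over all 15232 genes tested. Here and in the other comparisons the members are not independent genes, since globin copies share reads and the globins and Alas2 varied together. With the copies summed, neither chain passed in smoke against air (edgeR adjusted p 0.107 for alpha and 0.0663 for beta). Other settings called more genes than the 244 called here. With DESeq2 (913 genes) Hba-a2 and Hbb-bs also passed (DESeq2 adjusted p 0.0011 and 0.0137). In a fit of all 19 libraries (519 genes) Hba-a1 and Hba-a2 also passed (edgeR adjusted p 0.0396 and 0.026). Without a filter on low counts (466 genes) Hbb-bs also passed (edgeR adjusted p 0.0338).

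The alpha chain gene Hba-a1 had 126, 152, 77.5 and 181 CPM in the smoke libraries, against 68.6, 38.2, 61.8 and 91.5 CPM in the air libraries. Smoke 3, at 77.5 CPM, lay below air 4, so the groups overlapped, and the log2 fold change was 1.06 ± 0.33 (SE; edgeR adjusted p 0.144). Its copy Hba-a2 had 79.0, 98.9, 63.3 and 114 CPM after smoke, against 47.8, 27.1, 35.3 and 59.8 CPM in air. All 4 smoke libraries lay above all air libraries for Hba-a2 (log2 1.09 ± 0.27, edgeR adjusted p 0.0838). The summed alpha chain counts gave log2 1.07 ± 0.30 (edgeR adjusted p 0.107).

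The beta chain gene Hbb-bs had 369.8, 347, 282 and 420.1 CPM in smoke libraries, against 199, 223, 221 and 307 CPM in air libraries. Smoke 3 lay below air 4 again (log2 0.60 ± 0.16, edgeR adjusted p 0.079). Hbb-bt, the other beta chain gene, had 76.6, 68.9, 57.9 and 84.2 CPM after smoke, against 35.0, 37.1, 40.5 and 52.5 CPM in air. All smoke libraries lay above all air libraries, and Hbb-bt rose to 71.9 ± 11.2 CPM in smoke, against 41.3 ± 7.84 CPM in air (SD, n = 4 each; log2 0.82 ± 0.15 SE, edgeR adjusted p 0.0386). The sum of the beta chain copies, which does not depend on how shared reads were split, gave log2 0.63 ± 0.16 and did not pass (edgeR adjusted p 0.0663). Hbb-bt kept its call when air 4 or smoke 3 was left out, and lost it without any of the other 6 libraries, at log2 0.73 to 0.82 and edgeR adjusted p 0.0527 to 0.111.

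Alas2 had 15.2, 12.5, 10.98 and 21.3 CPM in the smoke libraries, against 5.32, 4.51, 7.04 and 8.49 CPM in the air libraries. No smoke library fell within the air range, and Alas2 rose to 15.0 ± 4.57 CPM in smoke, against 6.34 ± 1.78 CPM in air (SD, n = 4 each; log2 1.26 ± 0.24 SE, edgeR adjusted p 0.0387). Apex2, which overlaps Alas2 on the other strand, averaged 10.1 ± 0.461 CPM in smoke and 12.2 ± 1.29 CPM in air (SD). Any part of Apex2 reads in the counts of Alas2 was not tested. Without any 1 library other than smoke 3 the call of Alas2 was lost, at log2 1.03 to 1.42 and edgeR adjusted p 0.0572 to 0.114. Set against the Room-air libraries instead, smoke gave Alas2 a log2 fold change of 0.25 (edgeR adjusted p 0.607), and Hbb-bt one of 0.62 (adjusted p 0.04), where 6.20% of all genes passed. The call of Alas2 thus depended on which room air set was used. Hbb-bt passed against either set, but the sum of the beta chain copies did not pass against air and was not tested against Room-air.

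Bpgm had 57.6, 70.8, 49.0 and 61.3 CPM in smoke, against 55.9, 68.0, 69.1 and 59.4 CPM in air. These groups overlapped (log2 −0.06 ± 0.13, edgeR adjusted p 0.848), but against Room-air smoke gave Bpgm a log2 fold change of 0.45 that passed (adjusted p 0.0389). Slc4a1 had 8, 3, 13 and 15 counts in the smoke libraries (0.764, 0.378, 1.07 and 1.19 CPM), against 1, 3, 9 and 2 counts in the air libraries (0.0771, 0.307, 0.667 and 0.189 CPM). It was left out of this fit by the filter on low counts, and its groups overlapped.

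Some endothelial markers were also higher in smoke. The summed level of 15 endothelial markers was 2540 to 3457 CPM in smoke and 1408 to 2557 CPM in air, and 3 of the 15 rose (Itm2a at log2 1.14, Abcb1a at 0.78 and Slc2a1 at 0.69) with none lower. None of 8 pericyte, 6 smooth muscle and 8 fibroblast and meningeal markers passed. Cldn5, the main claudin of brain endothelium, had log2 0.31 and did not pass (edgeR adjusted p 0.375). Sums of white cell markers lay lower in smoke. Neutrophil and monocyte markers summed to 20.7 to 26.3 CPM in smoke and 26.8 to 31.7 CPM in air. Lymphocyte markers summed to 47.9 to 62.0 CPM in smoke and 62.3 to 76.8 CPM in air. Each sum came mostly from 1 gene, Csf3r (7766 counts over 19 libraries, next S100a9 at 724) and Ighm (11965, next Cd4 at 1902). Of the genes tested here, 1 of 4 neutrophil and monocyte markers and 0 of 5 lymphocyte markers were lower. S100a8, a calgranulin of neutrophils, fell by 2.08 on the log2 scale (edgeR adjusted p 0.0387), at 1 to 5 counts in smoke and 10 to 21 in air, and S100a9, its partner, had log2 −1.26 (adjusted p 0.0978). Platelet markers summed to 31.8 to 40.1 CPM in smoke and 31.4 to 37.2 CPM in air, mostly from Gp1bb (6652 counts over 19 libraries). Pf4, a platelet chemokine, had log2 0.37 (edgeR adjusted p 0.365). Neuron markers summed to 4125 to 5953 CPM in smoke and 6007 to 7733 CPM in air, with 1 of 10 lower. Microglia markers summed to 683 to 892 CPM in smoke and 579 to 614 CPM in air, with 1 of 8 higher. None of 8 astrocyte, 7 oligodendrocyte and 8 choroid plexus and ependymal markers passed. The part of these marker levels in the globin result was not tested.

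**Figure D2:**
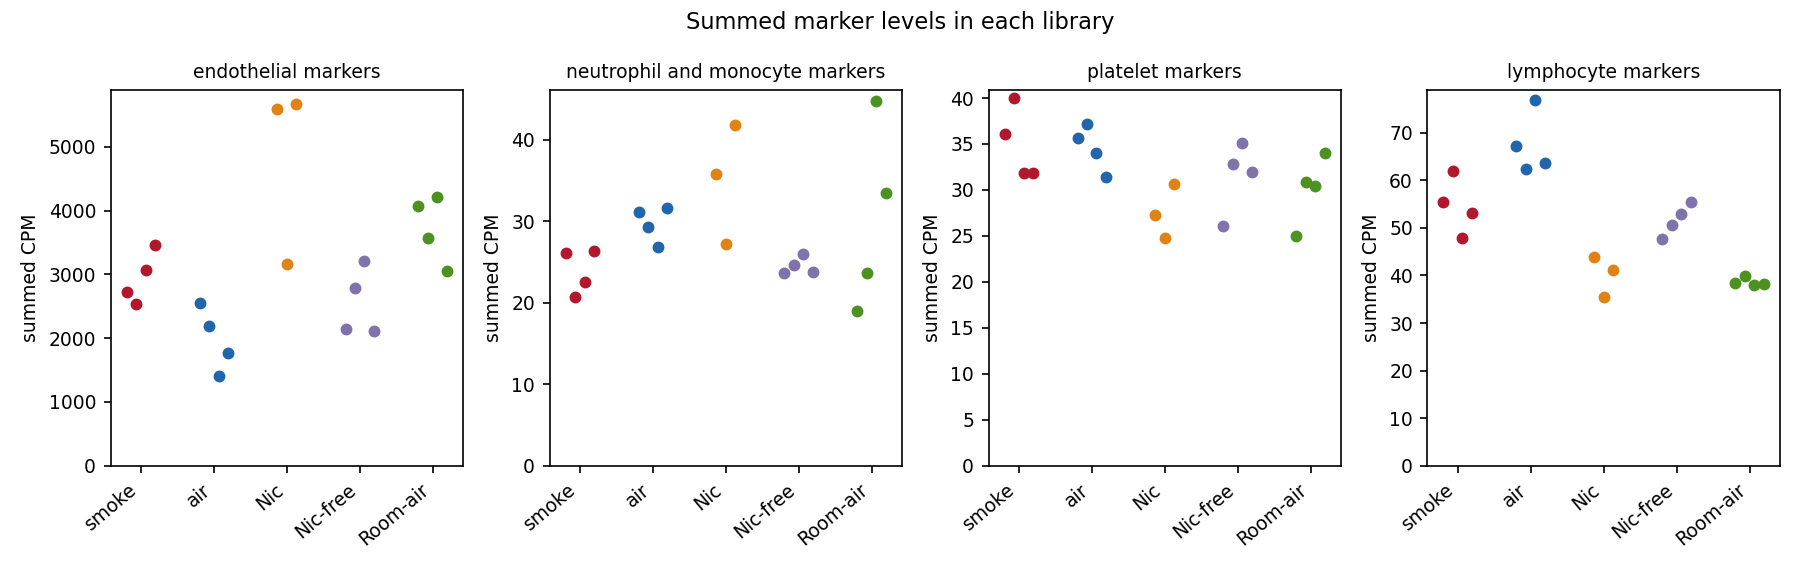
Summed level in CPM (vertical axes, starting at 0) of markers of endothelium, neutrophils and monocytes, platelets and lymphocytes in every library (points) of the 5 groups. Endothelial sums are higher in smoke (2540 to 3457 CPM) than in air (1408 to 2557 CPM), where smoke 2 lies just below air 1, while neutrophil and lymphocyte sums in smoke lie below those in air. The neutrophil and monocyte, lymphocyte and platelet sums come mostly from Csf3r, Ighm and Gp1bb.

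Air against Room-air shows how far libraries that share the room air label differ. In air Alas2 and Hba-a2 were lower and Bpgm was higher, while the beta chains did not pass. Of 7 members tested, 1 was higher and 2 were lower, where 22.7% of all 16557 genes tested passed, 10.7% higher and 12.0% lower, so that calls were common in this comparison. Members had a median log2 fold change of −0.19, against −0.003 over all genes. In the same comparison 11 of 15 endothelial, 5 of 8 pericyte and 5 of 8 fibroblast and meningeal markers were lower and none of these was higher, and their part in the result for the members was not tested.

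Alas2 fell to 6.34 ± 1.78 CPM in air, against 13.1 ± 2.71 CPM in Room-air, where the libraries had 13.0, 11.5, 17.0 and 11.1 CPM (SD, n = 4 each; log2 −1.01 ± 0.28 SE, edgeR adjusted p 0.0149). The groups did not overlap, and without air 2 the adjusted p was 0.053 (log2 −0.88). Hba-a2 fell to 42.5 ± 14.3 CPM in air, against 72.9 ± 12.2 CPM in Room-air, where the libraries had 62.3, 63.0, 86.8 and 79.6 CPM (log2 −0.74 ± 0.23, edgeR adjusted p 0.0299). All air libraries lay below all Room-air libraries for Hba-a2, and its call was lost without Room-air 3, Room-air 4, air 2 or air 3 (log2 −0.58 to −0.69, edgeR adjusted p 0.0638 to 0.0892), and with no filter on low counts (adjusted p 0.0671). Hba-a1 averaged 65.0 ± 21.9 CPM in air and 103 ± 15.6 CPM in Room-air, where the libraries had 87.1, 92.8, 119.6 and 113 CPM, and it did not pass (log2 −0.62 ± 0.26, edgeR adjusted p 0.0899). It did pass without air 4 (log2 −0.84, edgeR adjusted p 0.0331) or without smoke 3, which enters the shared spread (edgeR adjusted p 0.0425), and with DESeq2 (log2 −0.62, adjusted p 0.0443). The summed alpha chains gave log2 −0.67 ± 0.24 (edgeR adjusted p 0.0563).

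For the beta chains, Hbb-bs had 216, 237, 331 and 277 CPM in Room-air and overlapped with air (log2 −0.12 ± 0.16, edgeR adjusted p 0.625). Hbb-bt had 39.9, 40.7, 62.8 and 49.8 CPM in Room-air and overlapped too (log2 −0.19 ± 0.18, adjusted p 0.461). Bpgm rose to 63.1 ± 6.47 CPM in air, against 45.3 ± 2.88 CPM in Room-air, where the libraries had 47.5, 45.4, 47.1 and 41.2 CPM (log2 0.52 ± 0.13, edgeR adjusted p 0.00673). The groups did not overlap for Bpgm, and its call held in each of 25 alternatives. Slc4a1 had 0.265, 0.302, 0.396 and 0.300 CPM in Room-air, within the air range (log2 0.06 ± 0.48, adjusted p 0.938).

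The balance of alpha and beta chain counts also differed between libraries. Its level is uncertain, because how reads shared by the copies were counted is not known. Hba-a1 and Hba-a2 together made up 31.4, 37.6, 29.3 and 36.9% of adult globin counts in smoke, against 33.2, 20.1, 27.1 and 29.6% in air. Air 2 stood lowest at 20.1% (95% Wilson interval 18.8 to 21.5%, counting error only). The shares were 32.6, 35.8 and 34.8% in Nic, 33.5, 32.7, 36.0 and 36.3% in Nic-free, and 36.9, 35.9, 34.4 and 37.1% in Room-air. All air libraries lay below all Room-air libraries, with a difference of −8.57 percentage points (exact two-sided permutation p 0.0286, the smallest that 4 against 4 libraries allow, and 0.143 adjusted over 5 comparisons). For smoke against air the difference was 6.31 points (exact permutation p 0.143, adjusted 0.286), and the other 3 had adjusted p of 0.286 to 0.8. Within the pairs Hba-a1 held 55.1 to 63.7% of alpha chain counts and Hbb-bs 82.1 to 85.7% of beta chain counts. The Hbb-bs share was 82.8 to 83.4% in smoke, below every air library, at 84.5 to 85.7%. Hbb-bt, which passed in smoke against air, thus held a larger share of the beta chain counts in smoke. The part of this split in the call of Hbb-bt was not tested. Alas2 ran at 16.3 ± 2.48 counts per 1000 adult globin counts in air and at 27.0 ± 4.44 in Room-air, and at 22.9 ± 3.27 in smoke (SD, n = 4 each).

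**Figure D3:**
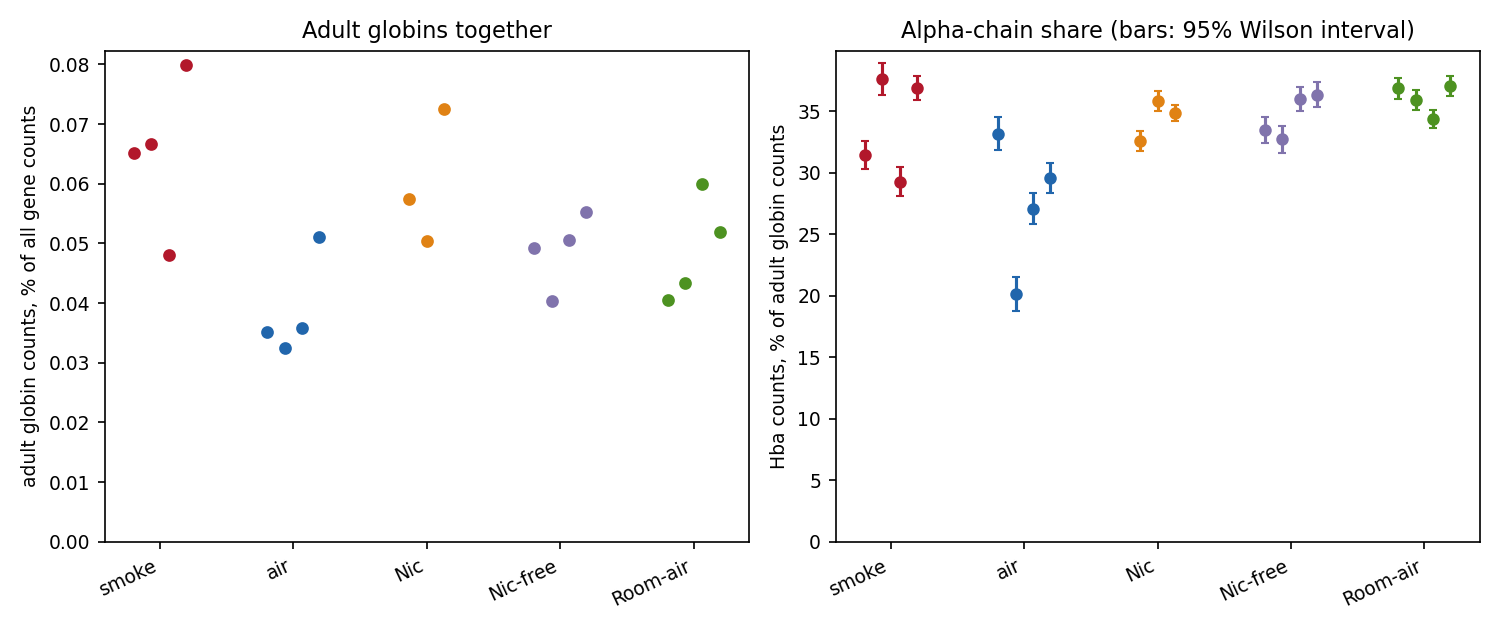
Adult globin counts as a percent of all gene counts (left) and alpha chain counts as a percent of adult globin counts (right, bars are 95% Wilson intervals) in each of 19 libraries (points), by group. Adult globins reach 0.0799% in smoke 4, and the 4 air libraries, at 20.1 to 33.2% alpha chain, lie below the Room-air libraries, at 34.4 to 37.1%.

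Nic against Room-air addresses vapour that carries nicotine. Slc4a1 rose, on few counts, with a mean 2.35 times that in Room-air. The globins and Alas2 had means 1.17 to 1.34 times those in Room-air and did not pass. Of 7 members tested, 1 was higher and none lower, where 3.89% of all 17235 genes tested passed, 1.22% higher and 2.67% lower. The members' median log2 fold change was 0.24, against 0.03 over all genes.

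Hba-a1 had 112, 105 and 147 CPM in the Nic libraries, overlapping with Room-air (log2 0.22 ± 0.15, edgeR adjusted p 0.417), and Hba-a2 had 74.9, 75.2 and 106 CPM (log2 0.21 ± 0.16, adjusted p 0.471). Hbb-bs had 326, 268 and 395 CPM in Nic (log2 0.29 ± 0.15, edgeR adjusted p 0.248) and Hbb-bt 61.8, 54.8 and 78.0 CPM (log2 0.40 ± 0.17, adjusted p 0.174). Nic 3 was the highest Nic library for each of the 4 globins, and each overlapped with Room-air. Alas2 had 15.5, 9.25 and 22.5 CPM in Nic (log2 0.24 ± 0.25, edgeR adjusted p 0.592), with Nic 2 below and Nic 3 above every Room-air library. Bpgm had 35.4, 35.6 and 48.4 CPM in Nic and overlapped with Room-air through Nic 3 (log2 −0.20 ± 0.11, edgeR adjusted p 0.269). Without Nic 3 it passed as lower (log2 −0.38, edgeR adjusted p 0.0141). Slc4a1 had 0.734, 0.535 and 0.952 CPM in Nic and stood at 0.740 ± 0.208 CPM (SD, n = 3), against 0.316 ± 0.0560 CPM in Room-air (n = 4; log2 1.21 ± 0.31 SE, edgeR adjusted p 0.0443). The Slc4a1 groups did not overlap, at 14 to 27 counts in Nic and 8 to 10 in Room-air. The call held in 6 of 19 alternatives, and leaving out 1 of the 11 libraries of the fit gave edgeR adjusted p of 0.0387 to 0.209, with the call lost without any of the Room-air libraries, Nic-free 2 or 3, or Nic 1 or 3.

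When air stood in for Room-air as the control of Nic, 5 of 7 members passed, where 30.0% of all 16557 genes tested passed. Alas2 (log2 1.23, edgeR adjusted p 0.00424), Hba-a2 (0.93, 0.00979), Hba-a1 (0.82, 0.0333) and Hbb-bt (0.57, 0.0281) were then higher and Bpgm lower (−0.74, 0.000668). The test of the smoke effect minus the Nic effect, in a fit of all 19 libraries, called 0 of the 7 members with edgeR and 0 with DESeq2, where 5.59% of all 16557 genes tested passed, 2.78% higher and 2.80% lower. At an unadjusted p under 0.05 stood 3 members: Hba-a2 (log2 0.89 ± 0.34, edgeR adjusted p 0.116), Alas2 (1.02 ± 0.39, 0.117) and Hba-a1 (0.86 ± 0.38, 0.168). Without Nic 3 this difference passed for Alas2 (log2 1.41, edgeR adjusted p 0.0195) and Hba-a2 (1.10, 0.0498), when 2476 genes passed, against 925 with Nic 3.

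Nic-free against Room-air addresses vapour that lacks nicotine. Bpgm rose, with a mean 1.30 times that in Room-air, while the globins and Alas2 had group means at 0.916 to 1.085 times those in Room-air. Of 7 members tested, 1 was higher and none lower, where 21.8% of all 17235 genes tested passed, 11.3% higher and 10.4% lower, so the count of members called is near the background. The members' median log2 fold change was 0.05, against 0.004 over all genes.

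Bpgm had 59.0, 59.9, 55.9 and 60.7 CPM in Nic-free libraries and stood at 58.9 ± 2.08 CPM, against 45.3 ± 2.88 CPM in Room-air (SD, n = 4 each; log2 0.43 ± 0.10 SE, edgeR adjusted p 0.00954). These groups did not overlap, but against air the log2 fold change of Bpgm was −0.10 (edgeR adjusted p 0.698), where 4.22% of all genes passed. Slc4a1 had 0.526, 0.457, 0.523 and 0.789 CPM in Nic-free, all above the Room-air libraries, and did not pass (log2 0.90 ± 0.32, edgeR adjusted p 0.0571). Without Nic 3, which enters the shared spread, its adjusted p was 0.0498. Hba-a1 had 97.3, 78.2, 109 and 119 CPM in Nic-free (log2 0.02 ± 0.14, edgeR adjusted p 0.942) and Hba-a2 67.3, 53.6, 72.8 and 81.3 CPM (log2 −0.04 ± 0.15, adjusted p 0.889). Hbb-bs had 271, 229, 276 and 289 CPM (log2 0.05 ± 0.14, edgeR adjusted p 0.82) and Hbb-bt 56.7, 42.2, 47.8 and 62.8 CPM (log2 0.17 ± 0.16, adjusted p 0.501). All 4 globins overlapped with Room-air, and so did Alas2, at 10.7, 9.71, 12.5 and 15.3 CPM (log2 −0.08 ± 0.24, edgeR adjusted p 0.849).

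Nic against Nic-free sets vapour with nicotine beside vapour without it. Bpgm fell to 39.8 ± 7.44 CPM in Nic (n = 3), against 58.9 ± 2.08 CPM in Nic-free (SD, n = 4; log2 −0.63 ± 0.11 SE, edgeR adjusted p 0.0014), with no overlap between the groups. That call held in each of 18 alternatives. It was the 1 lower member of 7 tested, none being higher, where 24.8% of all genes passed, 12.4% higher and 12.4% lower. The other 6 had log2 fold changes of 0.20 to 0.32, overlapped between the groups and did not pass (edgeR adjusted p 0.266 to 0.488), with a median over the 7 of 0.24 against 0.02 over all genes. Comparisons with Nic-free or Room-air share those libraries, so their values are not independent of each other.

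**Figure D4:**
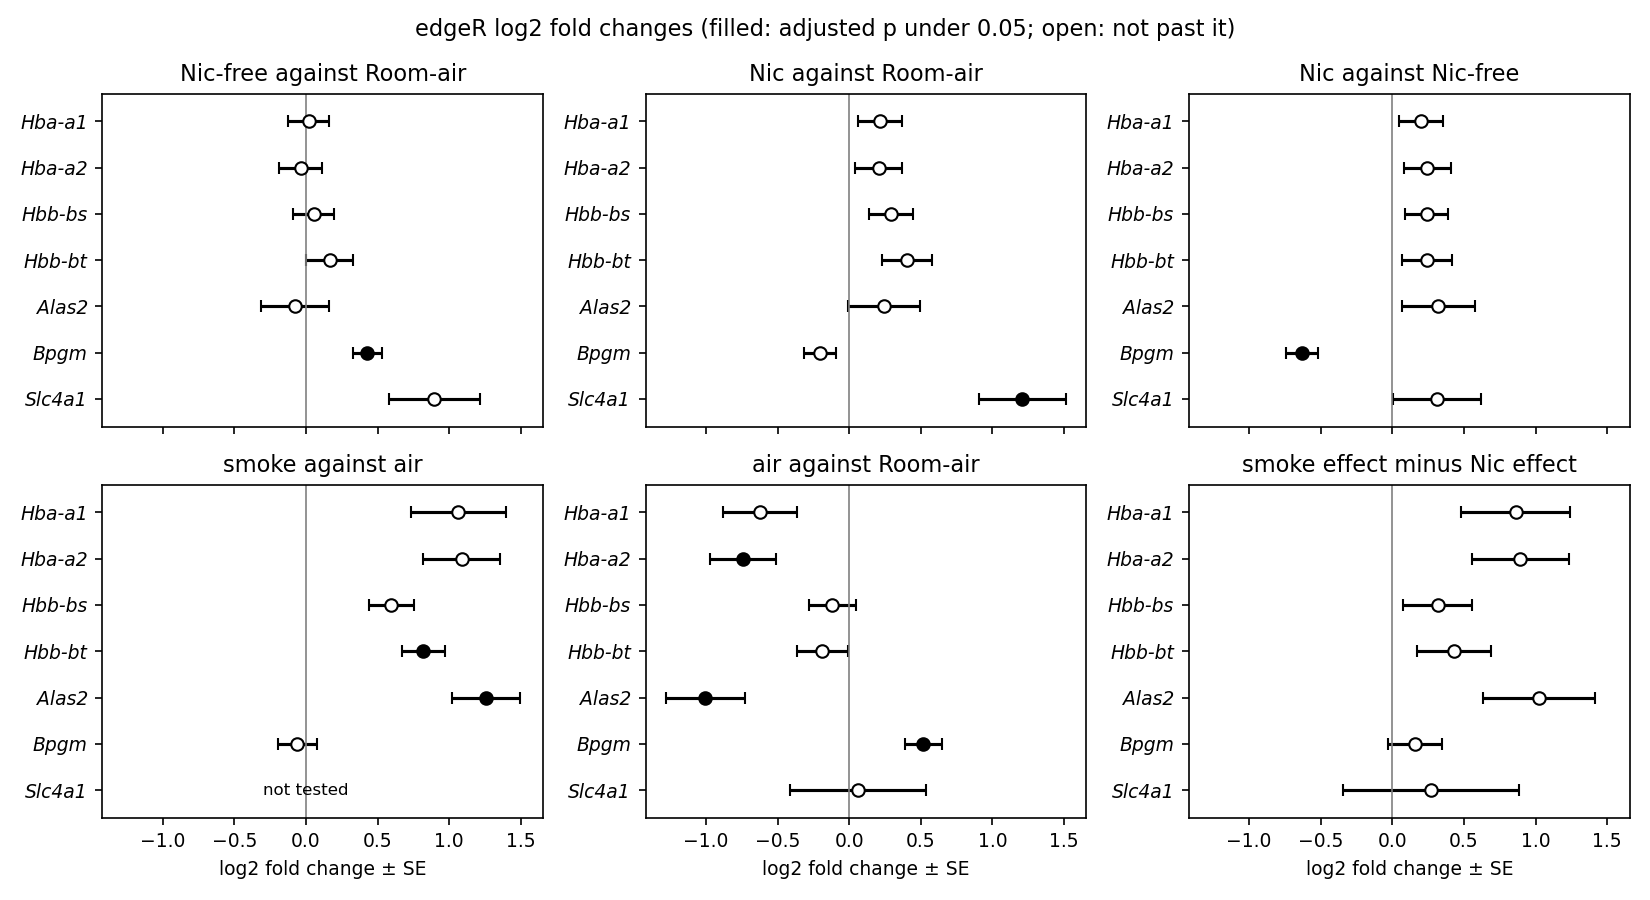
Log2 fold change (horizontal axis, bars are SE) of each of the 7 genes in the 6 comparisons, from edgeR, with filled circles for an adjusted p under 0.05. Alas2 and Hbb-bt lie higher in smoke against air (log2 1.26 and 0.82), and Bpgm lies apart from the globins in Nic against Nic-free (log2 −0.63).

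Markers of several brain cell types were called in the comparisons in which Bpgm passed, where 21.8% (Nic-free against Room-air), 24.8% (Nic against Nic-free) and 22.7% (air against Room-air) of all genes passed. Of 10 neuron markers 6 were higher in Nic-free than in Room-air, 5 were lower in Nic than in Nic-free and 3 were higher in air than in Room-air. Of 7 oligodendrocyte markers the counts were 5 higher, 6 lower and 4 higher in the same comparisons, and of 12 ribosomal protein genes 7 higher, 11 lower and 10 higher. Of 8 astrocyte markers 5 were higher in Nic-free than in Room-air, 6 were lower in Nic than in Nic-free, and 1 was higher and 1 lower in air than in Room-air. Of 8 microglia markers 5 were higher, 2 were lower, and 1 was higher with 1 lower in the same comparisons. Endothelial markers went the other way, with 6 of 15 lower in Nic-free than in Room-air, 10 higher in Nic than in Nic-free and 11 lower in air than in Room-air. Reads assigned to no feature were 38.9 to 45.2% in Nic-free and 28.7 to 33.4% in Room-air. The part of these shifts in the result for Bpgm was not tested. Choroid plexus markers, led by Ttr, the transthyretin gene, summed to 868 to 18387 CPM in Nic-free and 17485 to 24758 CPM in Room-air. Of the 8 such markers 2 fell in that comparison, Dynlrb2 (log2 −1.36) and Foxj1 (−0.91), genes of ciliated cells, and the median over the 8 was −1.45. Ttr did not pass in any of the 6 comparisons (edgeR adjusted p 0.208 to 0.978).

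Within groups, the globins and Alas2 varied together. Correlations were taken over the 19 libraries on deviations of log2(CPM + 0.1) from group means, in 21 pairs, with p-values from 100000 permutations within groups. Alpha and beta chain genes had Pearson r of 0.741 to 0.757 (permutation p 0.00072 to 0.0016, adjusted over the 21 pairs 0.003 to 0.0037) and Spearman rho of 0.781 to 0.821 (permutation p 0.00028 to 0.00098, adjusted 0.002 to 0.0033). The copies of a pair had r of 0.962 (alpha) and 0.947 (beta), each with a permutation p of 1e-05, the smallest these permutations can give, but they share reads. Alas2, which shares none with the globins, had r of 0.699 to 0.812 with them (permutation p 0.00033 to 0.0054, adjusted 0.0023 to 0.011) and rho of 0.682 to 0.770 (permutation p 0.0011 to 0.008, adjusted 0.0033 to 0.017). Without the 2 libraries farthest from the median, r was 0.728 to 0.818 between the chains and 0.617 to 0.771 for Alas2. All of these libraries share 1 normalisation by total counts.

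Over all 19 libraries Bpgm and Slc4a1 did not follow the globins in this way. For Bpgm r with the 4 globins was 0.177 to 0.333 (permutation p 0.2 to 0.54, adjusted 0.36 to 0.6; rho 0.079 to 0.319, permutation p 0.23 to 0.79), and r with Alas2 was 0.400 (permutation p 0.24, adjusted 0.36), or 0.155 without Nic 2 and Nic 3. For Slc4a1 r with the globins was −0.149 to 0.324 (permutation p 0.22 to 0.83, adjusted 0.36 to 0.83; rho −0.026 to 0.340). In the 11 Nic, Nic-free and Room-air libraries alone it was 0.815 to 0.861, and in the 8 smoke and air libraries, where its counts were 1 to 15, −0.425 to 0.110. With Alas2, Slc4a1 had r of 0.432 over the 19 libraries (permutation p 0.12, adjusted 0.23), 0.907 in the 11 and 0.278 in the 8. Bpgm and Alas2 had r of 0.691 in the 11 libraries and 0.113 in the 8.

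**Figure D5:**
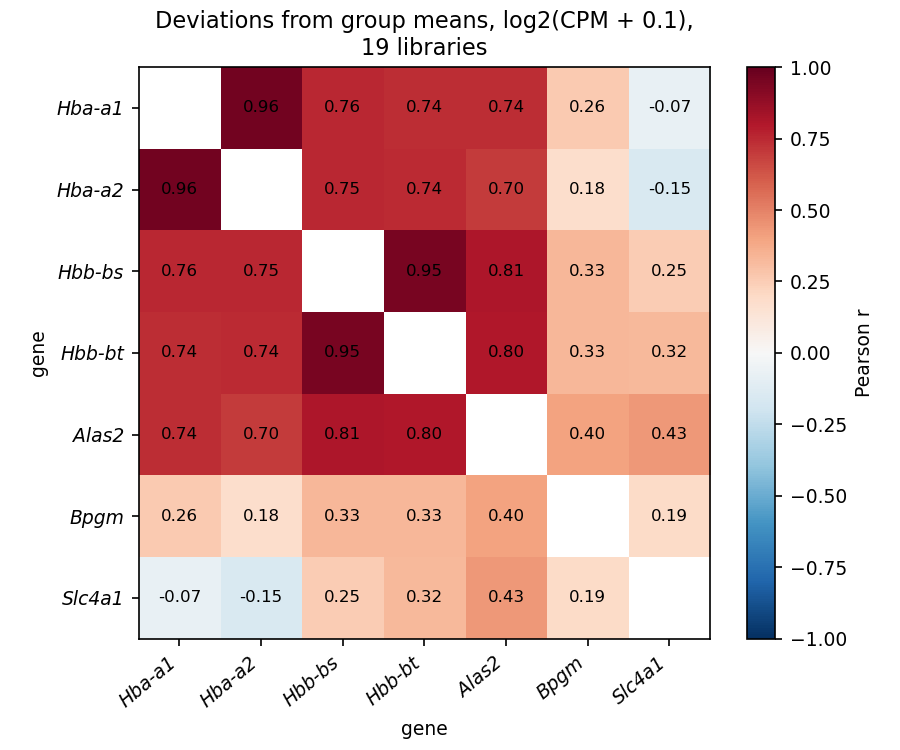
Pearson r (colour and number) between the 7 genes, on deviations of log2(CPM + 0.1) from group means over 19 libraries. The globins and Alas2 form a block at 0.70 to 0.96, and Bpgm has r of 0.18 to 0.40 with each of them.

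Among 13956 genes with a mean of at least 1 CPM, the 5 named genes whose deviations were most like those of the summed adult globins were Il21r (r 0.766), Capn1 (0.744), Was (0.733), Wdr89 (0.709) and Il17ra (0.702), all below Alas2 (0.825). Il21r averaged 3.18 CPM and encodes a cytokine receptor of lymphocytes, Was averaged 2.04 CPM and encodes an actin regulator of blood cells. Capn1 averaged 29.5 CPM, Wdr89 5.11 and Il17ra 37.6, and no cell type is assigned to the 5 genes as a set. The genes most like Bpgm were Snrnp35 (r 0.951), Csrp1 (0.939), Baalc (0.932), Zcchc24 (0.923) and Kif5a (0.916), a kinesin heavy chain of neurons that averaged 4392 CPM. These likenesses are descriptions over 19 libraries, picked as the highest of many.

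Other genes of haem and haemoglobin were counted beside the 7. The shares of all genes that passed were 1.60% in smoke against air, 22.7% in air against Room-air, 3.89% in Nic against Room-air, 21.8% in Nic-free against Room-air and 24.8% in Nic against Nic-free. A list count near or below its share is no result about the list. Of 13 haem synthesis genes, 2 rose in smoke and none fell: Alas1, the housekeeping form of the first enzyme, at 90.5 ± 10.3 CPM in smoke and 66.2 ± 6.93 CPM in air (SD, n = 4 each; log2 0.47, edgeR adjusted p 0.0414), and Abcg2, an exporter of porphyrins and drugs that brain endothelium also carries, at log2 0.82. Both were lower in air than in Room-air (Alas1 −0.54, Abcg2 −0.98), 2 of the 13 being past the threshold there. In Nic against Nic-free 3 rose (Abcg2 at 0.99, Alas1 at 0.65 and the haem exporter gene Flvcr1 at 0.49) and 2 fell, among them Alad (−0.41), the gene of the second enzyme of the pathway. In Nic-free against Room-air 1 rose (Abcb10, 0.31) and 1 fell (Abcg2, −0.63), and in Nic against Room-air none passed. Of 9 genes of haem breakdown and haemoglobin scavenging none rose or fell in smoke, with 8 tested. Hmox1, the inducible haem oxygenase, had log2 0.47 there (edgeR adjusted p 0.245) and passed in none of the 6 comparisons. Cd163, the macrophage receptor for haemoglobin, fell in air against Room-air (−1.31) and in Nic-free against Room-air (−0.71). In all, 2 of these 9 rose and 2 fell in air against Room-air, and 2 fell in Nic against Nic-free.

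The same shares of all genes, 1.60% in smoke against air, 22.7% in air, 3.89% in Nic and 21.8% in Nic-free against Room-air, and 24.8% in Nic against Nic-free, stand behind the lists that follow. Of 11 genes of erythroid transcription and receptors, Tfrc, the transferrin receptor that brings iron into cells, rose in Nic to 257 ± 77.9 CPM (n = 3) and in Nic-free to 234 ± 19.7 CPM, against 156 ± 5.57 CPM in Room-air (SD, n = 4 each; log2 0.69 and 0.63, edgeR adjusted p 0.0257 and 0.00525). Lmo2, a cofactor also used in endothelium, rose in Nic-free (0.59), and Ldb1 fell in air against Room-air (−0.28). None of the 7 tested in smoke against air passed. Of 24 listed late erythroid genes found, among them Bpgm itself, none of 18 tested passed in smoke. In air against Room-air 5 rose and 3 fell, led by Ube2l6 (−0.81) and Rsad2 (−0.80), and in Nic against Nic-free 2 rose and 6 fell, led by Bpgm, Car2 (−0.63) and Slc25a37 (0.63). In Nic-free against Room-air 3 rose, among them Bpgm, and 1 fell, Slc25a37 (−0.41), and in Nic against Room-air 3 fell, led by Slc25a39 (−0.68).

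Of 19 genes of the red cell membrane and its skeleton, 1 of 11 tested fell in smoke, Tmod1 (−0.40), where 1.60% of all genes passed, and 1 of 13 tested rose in air against Room-air, again Tmod1 (0.48), where 22.7% passed. Ermap rose (0.97) and Slc43a1 (−0.92) and Add2 (−0.49) fell in Nic-free against Room-air, while in Nic against Nic-free Slc43a1 (1.05) and Epb41 (0.42) rose and Ermap fell (−1.12). In the list around 2,3-bisphosphoglycerate, 3 of 6 fell in Nic against Room-air: Pgk1 (−0.74), Gapdh (−0.59) and Eno1 (−0.50), enzymes of lower glycolysis. In Nic against Nic-free 4 fell, led by Pgam2 (−1.59), a muscle phosphoglycerate mutase, Gapdh (−0.70) and Pgk1 (−0.51). Pgam2 was the 1 member of that list to rise in Nic-free (1.25) and in air (1.07) against Room-air, on 10 to 54 counts per library. Of 10 bicarbonate exchangers and carbonic anhydrases, 9 were tested and none passed in smoke. Car2 and Car14 fell in Nic against Room-air (−0.51 and −0.89), and Slc4a2 and Car14 fell in Nic-free against Room-air (−1.17 and −0.69). In Nic against Nic-free Slc4a7 and Car4 rose (0.74 and 0.47) and Car2 fell, and in air against Room-air Car2 rose (0.53) and Car4 fell (−0.55). Among the globins outside red cells, Ngb, neuroglobin, passed in none of the 6 comparisons, and Cygb, cytoglobin, fell in Nic against Nic-free (−0.60, edgeR adjusted p 0.00778).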

How the data were processed

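Raw counts per Ensembl gene were deposited by the authors for 19 libraries of polyadenylated RNA. Reads were single-end, 80 nt and strand-specific, per the labels' protocols. They were aligned with STAR to mm10 and counted with HTSeq, per the submitters' processing notes, versions and strand setting not given in the sources used here. The line for reads aligned to several places is 0 in every file, so how reads shared by globin copies were counted is not known. The 5 summary lines per file were left out. Gene counts per library, in units of 1e+06, were 7.94 to 12.6 in smoke, 9.76 to 13.5 in air, 21.8 to 28.4 in Nic, 15.2 to 19.1 in Nic-free and 25.3 to 30.2 in Room-air.

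Levels are CPM over all gene counts. Tests used edgeR 4.0.16 in R 4.3.3 (TMM, filterByExpr, robust quasi-likelihood, two-sided, Benjamini-Hochberg over all genes tested, threshold 0.05). Nic, Nic-free and Room-air shared 1 fit, smoke and air another, and air against Room-air and the difference of effects came from all 19 libraries. The script was tested on simulated data. No pair of libraries of the same group agreed within sampling noise, and pairs across groups were not compared. Alternatives used other scalings, filters, controls, DESeq2 1.42.0, a replicate block and each library left out, and summing the globin copies was added after seeing the data, as were the permutation tests of alpha chain shares and correlations (SciPy 1.17.1).

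The members and gene lists were chosen with earlier results of these data known. From other lists the text names up to 3 called genes of largest change per comparison, some fixed examples, and the 5 genes most like the globins and Bpgm. Some genes of these lists are not reported here.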

Additional observations from a re-analysis of the deposited data

How the results depend on the processing

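Levels and correlations of the members moved by less than their spread under TMM-scaled CPM and a pseudocount of 1. The main fits called 2 members and 244 of 15232 genes in smoke against air, and 1 member and 670 of 17235 in Nic against Room-air. With DESeq2 the members called were 4 in smoke against air and 0 in Nic against Room-air. Genes called were 913 of 24593 with a count, 1612 of 26833 and, for the difference of effects, 1760 of 27448. A fit of all 19 libraries gave 4 and 0 members in smoke against air and Nic against Room-air, with 519 and 348 of 16557 genes. Without a filter, 466 of 24593 genes passed in smoke against air. In Nic against Room-air 0 members passed without a filter. Between libraries of equal replicate number, 36 correlations of deviations ran from −0.485 to 0.524, 8 above 0.1. Libraries of unequal number were not correlated, so these values cannot show whether replicate numbers pair the samples. With a replicate block 5 genes and 0 members passed in smoke against air and 0 members in Nic against Room-air. With air as control, 699 genes and 0 members passed for Nic-free, and 4961 genes and 5 members for Nic, and Hba-a2 (log2 0.69), Alas2 (0.92) and Bpgm (−0.10) changed sign for Nic-free. With Room-air as control for smoke, 1027 genes passed and Bpgm turned to 0.45 and passed (edgeR adjusted p 0.0389). Hba-a1 in Nic-free turned to −0.028 with library totals alone and to −0.0042 with the copies summed. The cause was not tested.

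Leaving out 1 library gave 1 to 192 genes and 0 to 2 members in smoke against air, 0 to 2956 and 0 to 1 in Nic against Room-air, 2186 to 4353 and 1 to 2 in Nic-free against Room-air, 2401 to 4679 genes in Nic against Nic-free, 2415 to 4234 and 1 to 4 in air against Room-air, and 13 to 2476 and 0 to 2 for the difference of effects. The 0 genes came without Nic 1 or Room-air 2, the 2956 without Nic 3, and the 1 gene without smoke 1. Signs changed in these values: for Nic-free against Room-air Hba-a1 (−0.064 to 0.12), Hba-a2 (−0.12 to 0.0601), Hbb-bs (−0.038 to 0.17) and Alas2 (−0.20 to 0.065); for Alas2 in Nic against Room-air (−0.12 to 0.51) and Nic-free (−0.043 to 0.59); for Bpgm in smoke (−0.20 to 0.0298) and in the difference of effects (−0.0023 to 0.35); for Slc4a1 in air against Room-air (−0.73 to 0.45) and in the difference (−0.13 to 1.05); and for Hbb-bs in air against Room-air (−0.27 to 0.0049). None of these was past the threshold in the comparison as reported. Depth limits Slc4a1 and Klf1, whose counts are few in smoke and air.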
